A study of Mus musculus with 6 samples.

Results

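The genes described here are 9 regulators of cell cycle entry: the 7 inhibitors of cyclin-dependent kinases (CDKs), Cdkn2a, Cdkn2b, Cdkn2c, Cdkn2d, Cdkn1a, Cdkn1b and Cdkn1c, together with the transcription factor Myc and the phosphatase Cdc25a. They were taken by gene symbol from a table of 21240 genes counted by RNA-seq, and each symbol matched a single row. For testing, a gene needed a level of 2 CPM (its count scaled to library size) or more in at least 2 libraries, which 11080 genes reached. Of the 9 genes, 7 passed and 2, Cdkn2d and Cdkn1c, did not. Those 2 are described by their counts.

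NMuMG is an epithelial cell line derived from the mammary gland of the mouse, widely used to study the response to transforming growth factor β (TGFβ). All cells were first kept for 6 h in medium without serum and insulin. Stranded libraries of total RNA were then made from 2 biological replicates of each of 3 groups, 6 libraries in all. The vehicle group received solvent with bovine serum albumin for 2 h. The 2 h group received TGFβ1 at 5 ng/ml for 2 h. The 12 h group received the same dose for 12 h. The sample label names Tris-HCl in the vehicle, and the treatment protocol names HCl. Total counts ran from 14705886 in vehicle replicate 2 to 23786993 in 12 h replicate 1. Because vehicle cells were collected at 2 h only, 12 h of TGFβ1 and the longer time without serum cannot be told apart in the comparison of 12 h with vehicle.

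Cells leave G1 when cyclin D with CDK4 or CDK6, and then cyclin E with CDK2, phosphorylate the retinoblastoma proteins and release E2F factors. Inhibitors of the INK4 family (encoded by Cdkn2a to Cdkn2d) bind CDK4 and CDK6, whereas those of the Cip/Kip family (Cdkn1a to Cdkn1c) act on cyclin-CDK complexes, above all on those of CDK2. Myc drives growth and can repress Cdkn2b and Cdkn1a through the zinc finger protein Zbtb17 (Miz-1), Cdc25a removes inhibitory phosphates from CDK2, and arrest by TGFβ in epithelial cells is known for induction of Cdkn2b and Cdkn1a with loss of Myc and Cdc25a.

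The cell label was compared with a list of marker genes. Cdh1 (E-cadherin) stood at 421 and 363 CPM in the vehicle replicates and Krt18 at 2383 and 1918. Of 12 epithelial markers, 7 passed the filter. Defining markers of many epithelia were absent or nearly so: Epcam had 2 to 16 counts a library, Esrp1 1 to 3, and Grhl2 0 to 27, while Cldn3 and Cldn7 were at 0 counts in every library except 2 h replicate 2, with 1 and 7 counts. Vim, a mesenchymal intermediate filament, was at 1821 and 1986 CPM already in vehicle. It was the highest of 10 mesenchymal and fibroblast markers and made up most of their summed level in vehicle, 2090 and 2229 CPM. Of these 10, 7 passed the filter and 1 was at 0 in every library. Of 9 markers of immune cells, endothelium and fat, 6 had at most 3 counts in every library and Cd3e was at 0 in all of them. The summed level of that list was 6.12 and 7.08 CPM in vehicle, 6.12 and 6.76 at 2 h, and 5.93 and 8.17 at 12 h, most of it from the macrophage gene Cd68. Within this sum the endothelial cadherin Cdh5 moved, with 1 and 2 counts in vehicle, 6 and 5 at 2 h, and 39 and 36 at 12 h, and its part in the results below was not tested.

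At 2 h of TGFβ1, 2 of the 7 genes tested were higher than in vehicle, Cdkn2b and Cdc25a, and 0 were lower at an adjusted p under 0.05. Among all 11080 genes, 9.91% were higher and 5.25% lower by the same rule. At 12 h, 3 of 7 were higher than in vehicle (Cdkn2a, Cdkn2b and Myc) and 1 was lower (Cdkn2c), beside 21.8% higher and 21.5% lower among all genes tested. Between 12 h and 2 h, 2 of 7 were higher at 12 h (Cdkn2b and Myc) and 2 lower (Cdkn2c and Cdc25a), beside 15.2% and 18.9%. Changes in each direction were thus common in these cells, above all at 12 h. The comparisons of 2 h and of 12 h with vehicle share the vehicle libraries. The count of 0 lower genes among the 7 at 2 h was also 0 with limma-voom and with DESeq2, and 0 were lower at an unadjusted p under 0.05.

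With so few genes these counts say little by themselves, and the values of each gene follow. Adjusted p is the Benjamini-Hochberg value from edgeR's quasi-likelihood test throughout, taken over all genes tested in a comparison, a gene is called at a value under 0.05, errors are standard errors (n = 2 libraries a group) unless named otherwise, and CPM is scaled by TMM factors. The median log2 fold change of all genes was -0.01 at 2 h and 0.02 at 12 h. Without TMM factors it was -0.12 and -0.11, and the share of higher genes among those called went from 65.4% to 46.7% at 2 h and from 50.3% to 37.5% at 12 h. In RNA from whole cultures, fewer cells in a state and less RNA per cell cannot be told apart.

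**Figure D1:**
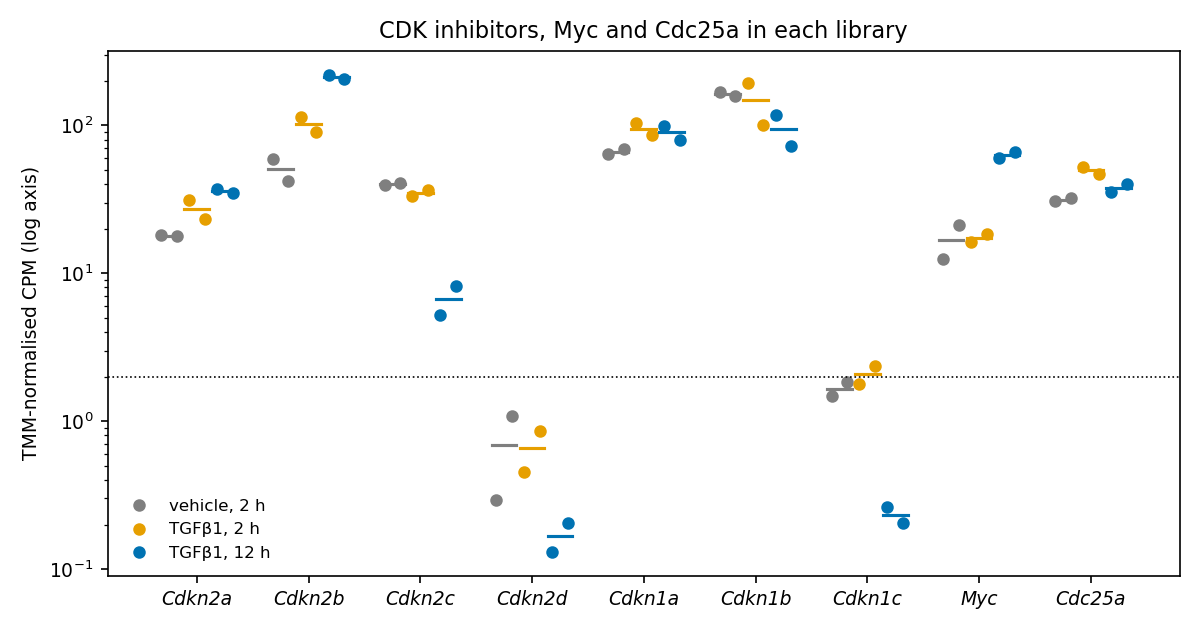
Level of each gene in each library, as CPM scaled by TMM factors on a log axis, for vehicle at 2 h, TGFβ1 at 2 h and TGFβ1 at 12 h. Points are libraries, short lines are means of 2 libraries, and the dotted line marks 2 CPM. Cdkn2b climbs from 59.5 and 42.0 to 220 and 206 CPM and Cdkn2c drops from 39.2 and 40.6 to 5.23 and 8.17 CPM.

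Divided by the length of all annotated exons, levels can be ordered between genes. In vehicle, Cdkn2b had 36.4 ± 8.87 CPM per kb (SD, n = 2), Cdkn1b 35.6 ± 1.33 and Cdkn1a 29.9 ± 1.38. The range of Cdkn2b overlapped those of both others, so its place among these highest genes is uncertain. Cdkn2a followed with 15.3 ± 0.143 and Cdkn2c with 14.9 ± 0.364 CPM per kb, which differ by little more than their spread. Cdc25a was at 8.64 ± 0.281 and Myc at 6.17 ± 2.23 CPM per kb, and the spread of Myc is close to the distance between them. Cdkn1c, at 0.860 ± 0.138, and Cdkn2d, at 0.542 ± 0.439, were the lowest, and their libraries overlapped. At 12 h the order was another. Cdkn2b stood alone at 153 ± 6.73 CPM per kb, followed by Cdkn1a at 40.3 ± 6.28, Cdkn2a at 30.8 ± 1.44, Myc at 23.1 ± 1.61, Cdkn1b at 20.8 ± 7.12 and Cdc25a at 10.4 ± 1.02. The libraries of Myc lay within the range of Cdkn1b, so those neighbours did not differ beyond their spread. Cdkn2c had come down to 2.49 ± 0.773 CPM per kb, and Cdkn2d and Cdkn1c stood at 0.132 ± 0.0416 and 0.121 ± 0.0205.

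Cdkn2b encodes p15INK4b, the INK4 inhibitor best known as a TGFβ target. Its level was 59.5 and 42.0 CPM in the vehicle replicates, 113 and 90.0 at 2 h, and 220 and 206 at 12 h. The 3 groups formed 3 separate steps with no overlap. Expressed as log2 fold change this was 1.00 ± 0.190 at 2 h (adjusted p = 0.0173) and 2.07 ± 0.195 at 12 h (adjusted p = 0.000342). The step from 2 h to 12 h, tested by itself, was 1.07 ± 0.188 (adjusted p = 0.00633). The vehicle replicates differed more than those at 12 h, and the call at 2 h depends on single libraries. It was lost without vehicle replicate 2, where the log2 fold change was 0.77. Leaving out 12 h replicate 1 or 12 h replicate 2 also lost it, with a log2 fold change of 0.99 in each fit. The cause of these lost calls was not tested. The step from 2 h to 12 h missed the threshold without 12 h replicate 1 (1.02, adjusted p = 0.0604), whereas the call at 12 h against vehicle held in each of the 6 fits that left out a library.

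Cdkn2a, the neighbouring gene, gives rise from separate first exons to p16INK4a and to p19ARF, a product that protects p53 from Mdm2. Counts per gene do not separate the transcripts. Cdkn2a stood at 18.0 and 17.8 CPM in vehicle, 31.2 and 23.3 at 2 h, and 37.3 and 34.9 at 12 h. Every treated library was above both vehicle libraries, and the libraries at 12 h were above those at 2 h. The log2 fold change at 12 h was 1.01 ± 0.166 (adjusted p = 0.00329). At 2 h it was 0.61 ± 0.166 and missed the threshold (adjusted p = 0.0558). Without the lower library, 2 h replicate 2, the value at 2 h was 0.80 and passed the threshold. It was also called with DESeq2 (0.59, adjusted p = 0.0304) and with a term for the replicate number (0.60, adjusted p = 0.0111), while leaving out single libraries gave adjusted p from 0.0128 to 0.211. The difference between 12 h and 2 h was 0.40 ± 0.162 (adjusted p = 0.0995), called without 2 h replicate 1 (0.63, adjusted p = 0.0203) and with the term for the replicate number (0.41, adjusted p = 0.0278).

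Cdkn2c encodes p18INK4c, an inhibitor that is itself a target of E2F factors. It was measured at 39.2 and 40.6 CPM in vehicle, 33.0 and 36.2 at 2 h, and 5.23 and 8.17 at 12 h. The libraries at 12 h lay far below all others, and those at 2 h were slightly below vehicle. Its log2 fold change was -0.21 ± 0.197 at 2 h (adjusted p = 0.536), -2.58 ± 0.216 at 12 h (adjusted p = 0.000228) and -2.37 ± 0.214 between 12 h and 2 h (adjusted p = 0.000634). Leaving out single libraries moved the value at 12 h between -2.94 and -2.30.

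Cdkn2d, which encodes p19INK4d, was barely expressed, with 5 and 17 counts in vehicle, 9 and 17 at 2 h, and 3 and 4 at 12 h. Its vehicle libraries differed from each other nearly as much as vehicle from 12 h. Summed over replicates, its level at 12 h was 0.245 of that in vehicle, with an exact 95% interval of 0.0884 to 0.594 that covers counting error only. In the fit without a filter on low counts, over 16115 genes, the adjusted p of this difference was 0.0935. The INK4 genes together thus held a rise of the linked genes Cdkn2a and Cdkn2b, a fall of Cdkn2c and a Cdkn2d too low to call.

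Among the Cip/Kip genes, Cdkn1a encodes p21, which is induced by p53 and in epithelial cells also by TGFβ. Its level was 64.2 and 68.5 CPM in vehicle, 104 and 85.5 at 2 h, and 99.4 and 79.7 at 12 h. All 4 treated libraries were higher than both vehicle libraries, and those of 2 h and 12 h overlapped. The log2 fold changes of 0.51 ± 0.150 at 2 h and 0.43 ± 0.149 at 12 h missed the threshold (adjusted p = 0.0682 and 0.0556). With DESeq2 they were 0.50 and 0.42 and passed it (adjusted p = 0.0335 and 0.0436), as did single fits with a library left out: 0.64 at 2 h without 2 h replicate 2 (adjusted p = 0.0368), and 0.42 and 0.43 at 12 h without 2 h replicate 1 or 2 (adjusted p = 0.0333 and 0.0266). With a term for the replicate number the values were 0.50 and 0.42 (adjusted p = 0.0120 and 0.0130). Over the 6 fits that left out a library the adjusted p ran from 0.0368 to 0.278 at 2 h and from 0.0266 to 0.324 at 12 h. Between 12 h and 2 h the difference was -0.08 ± 0.148 (adjusted p = 0.712), and it turned to 0.07 without 2 h replicate 1 or 12 h replicate 2.

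Cdkn1b encodes p27, an inhibitor regulated in large part through its turnover. It stood at 166 and 158 CPM in vehicle, 194 and 100 at 2 h, and 118 and 71.8 at 12 h. The replicates at 2 h fell on opposite sides of vehicle, and only the libraries at 12 h were both below it. Replicate 2 was lower than replicate 1 in every group. Its log2 fold change was -0.14 ± 0.336 at 2 h (adjusted p = 0.812) and -0.77 ± 0.339 at 12 h (adjusted p = 0.110), with a standard error larger than that of any other gene of the 7. Without either library of 2 h, the more uneven group, the value at 12 h was -0.79 or -0.78 and passed the threshold (adjusted p = 0.0173 and 0.0174), as with DESeq2 (-0.78, adjusted p = 0.0377), while over the 6 fits that left out a library the adjusted p ran from 0.0173 to 0.434. Between 12 h and 2 h the difference was -0.63 ± 0.338 (adjusted p = 0.194), and it was called without 2 h replicate 2 (-1.03, adjusted p = 0.0169). With a term for the replicate number, the value was -0.83 at 12 h (adjusted p = 0.00309) and -0.61 between 12 h and 2 h (adjusted p = 0.0177), and both were called. At 2 h the sign turned without replicate 2 of that group (0.26, adjusted p = 0.582).

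Cdkn1c, the imprinted gene of p57, was low, with 25 and 29 counts in vehicle, 35 and 47 at 2 h, and 6 and 4 at 12 h. In spite of these low numbers the libraries at 12 h were below all the others. Its level at 12 h was 0.143 of that in vehicle (exact 95% interval 0.0648 to 0.283, counting error only). In the fit without a filter the log2 fold change was -2.78 ± 0.439 at 12 h (adjusted p = 0.00117) and 0.32 ± 0.344 at 2 h (adjusted p = 0.685).

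**Figure D2:**
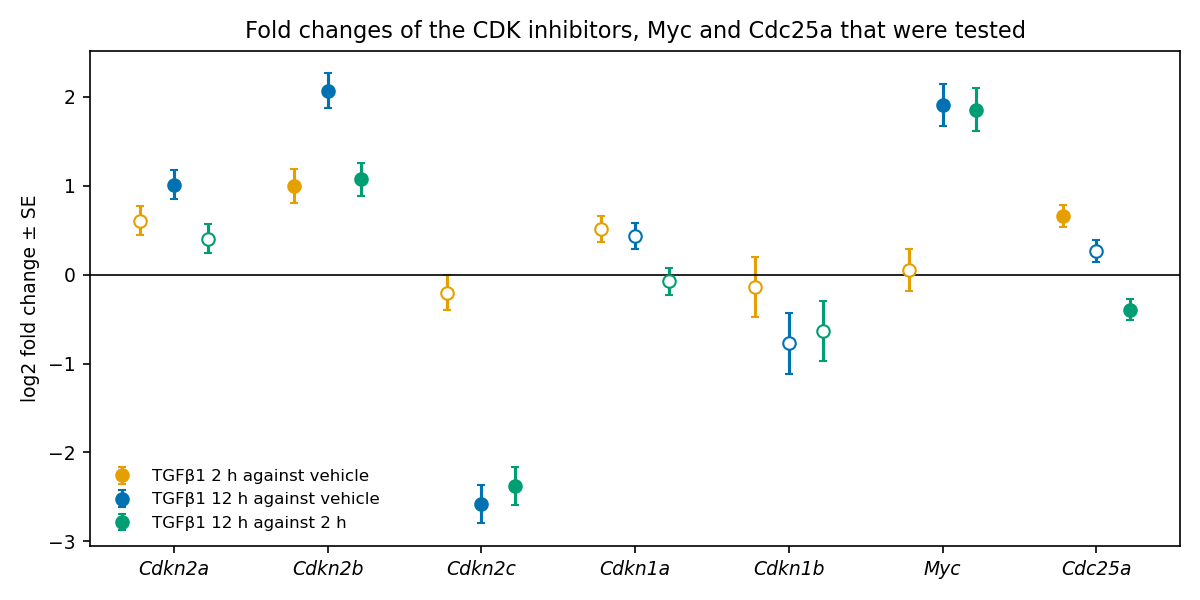
Log2 fold change of each gene that passed the filter, with its standard error as the bar, for TGFβ1 at 2 h against vehicle, at 12 h against vehicle, and at 12 h against 2 h (2 libraries a group). Filled points have an adjusted p under 0.05. Cdkn2b is above 0 in all 3 comparisons, Cdkn2c is at -2.58 and Myc at 1.91 at 12 h, and Cdc25a is at 0.66 at 2 h.

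Myc was flat at 2 h and high at 12 h. The vehicle replicates had 12.5 and 21.0 CPM, those at 2 h 16.2 and 18.5, and those at 12 h 59.7 and 65.9. Both libraries of 2 h lay between the vehicle libraries, and both of 12 h were far above all others. In log2 fold change this was 0.05 ± 0.240 at 2 h (adjusted p = 0.907), with a sign that turned without TMM factors (-0.06) or without vehicle replicate 1 (-0.28) or 2 h replicate 2 (-0.04), and 1.91 ± 0.241 at 12 h (adjusted p = 0.00112). The difference between 12 h and 2 h was 1.85 ± 0.239 (adjusted p = 0.00205). Leaving out single libraries moved the value at 12 h between 1.57 and 2.33. No decrease of Myc RNA was thus measured at either time, although with 2 libraries a group and a vehicle spread of this size a small early decrease could have been missed.

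The partners of Myc were taken from a list of 14 genes of its network, 12 of which passed the filter, Myc itself among them. At 2 h, 1 was higher and 3 were lower, beside 9.91% higher and 5.25% lower among all genes tested. At 12 h 3 were higher and 4 lower, beside 21.8% and 21.5%, with a median log2 fold change of -0.11 beside 0.02 for all genes. With limma-voom and DESeq2, 3 were lower at 2 h and 4 at 12 h. The term for the replicate number and the fit without TMM factors each gave 3 lower at 2 h and 6 at 12 h. No fit that left out a library kept the 3 lower genes at 2 h (0 to 2), and at 12 h such fits gave 1 to 5 lower. Max, the obligate partner of Myc, had a log2 fold change of 0.75 ± 0.129 (adjusted p = 0.00404), and Zbtb17, through which Myc represses inhibitor genes, of 0.58 ± 0.112 (adjusted p = 0.00651). Zbtb17 was also higher at 2 h (0.59 ± 0.112, adjusted p = 0.0173), a call not kept in every fit that left out a library. Mycn was low, with 23 and 24 counts in vehicle, 50 and 46 at 2 h, and 13 and 13 at 12 h, and it reached 2 CPM at 2 h only. Its log2 fold change was 0.75 ± 0.288 at 2 h (adjusted p = 0.141) and -1.22 ± 0.328 at 12 h (adjusted p = 0.0233). Mxd3, a competitor of Myc for Max, went from 47 and 160 counts in vehicle to 4 and 2 at 12 h. Of 20 textbook targets of Myc, 1 was higher at 2 h (Odc1) and 0 were lower, whereas at 12 h 10 were higher and 1 lower, with a median of 0.51 (7 to 11 higher with a library left out). The targets with the largest change at 12 h were Odc1, of polyamine synthesis, which went from 13.9 and 15.2 CPM in vehicle to 44.9 and 46.7 (1.65, adjusted p = 0.000164), and the ribosome biogenesis genes Nop56 (1.07 ± 0.122, adjusted p = 0.000741), Polr1b (1.02 ± 0.157, adjusted p = 0.00252) and Bop1 (0.98 ± 0.158, adjusted p = 0.00314). The gene that was lower was Ldha, lactate dehydrogenase (-0.94 ± 0.154, adjusted p = 0.0032), named after its value was seen. Without TMM factors 8 targets were higher at 12 h, and with the term for the replicate number 14 were. At 2 h that term gave 2 higher and 1 lower, and the call of Odc1 at 2 h was not kept in every fit that left out a library. Among all genes tested, 9.91% were higher at 2 h and 21.8% at 12 h.

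Cdc25a showed the reverse time course, high at 2 h and near vehicle at 12 h. It was at 30.6 and 32.1 CPM in vehicle, 52.2 and 46.9 at 2 h, and 35.1 and 40.3 at 12 h. The groups did not overlap, with both libraries of 12 h between those of vehicle and 2 h. Its log2 fold change was 0.66 ± 0.123 at 2 h (adjusted p = 0.0160), 0.27 ± 0.123 at 12 h (adjusted p = 0.126, and 0.15 without 12 h replicate 2) and -0.39 ± 0.122 between 12 h and 2 h (adjusted p = 0.0466). The call at 2 h was lost without vehicle replicate 1 (0.62, adjusted p = 0.109) or vehicle replicate 2 (0.69, adjusted p = 0.0788). The difference between the time points lies close to the threshold. It missed it in 5 of the 6 fits that left out a library, with adjusted p of 0.0789 and 0.0773 without vehicle replicates 1 and 2, 0.138 without 2 h replicate 1, and 0.245 and 0.0937 without 12 h replicates 1 and 2.

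The other genes of the family went another way at 12 h. Cdc25b, which acts at the entry into mitosis, had 49.9 and 86.2 CPM in vehicle, 44.3 and 89.5 at 2 h, and 5.54 and 6.42 at 12 h. Cdc25c had 12.2 and 25.7, 12.1 and 26.7, and 0.174 and 0.411 CPM. Both were unequal between replicates in vehicle and at 2 h, in the same way, and far lower at 12 h. Their log2 fold changes at 12 h were -3.51 ± 0.423 and -6.02 ± 0.700 (adjusted p = 0.000938 and 0.000798). Of 7 kinases and kinase subunits that phosphorylate CDKs or Cdc25 proteins, 0 were called at 2 h. There 5.25% of all genes tested were lower and 9.91% higher. At 12 h 3 of the 7 were lower, beside 21.5% of all genes tested, with a median of -0.56. They were Pkmyt1 (-1.58 ± 0.275, adjusted p = 0.00424), Chek2 (-1.32 ± 0.247, adjusted p = 0.00564) and Ccnh (-0.44 ± 0.126, adjusted p = 0.0302). At 2 h, limma-voom and DESeq2 also called 0 of these 7. At 12 h, fits that left out a library gave 1 to 4 lower and 0 to 2 higher, and the term for the replicate number gave 4 lower and 2 higher.

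Of the cyclins and CDKs that the inhibitors bind, 3 of 9 were lower at 2 h and 5 of 9 at 12 h, and 0 were higher at either time. Medians were -0.35 and -0.69. Of all genes tested, 5.25% were lower and 9.91% higher at 2 h, and 21.5% were lower and 21.8% higher at 12 h. The term for the replicate number gave 4 lower at 2 h and 6 at 12 h. DESeq2 and the fit without TMM factors gave 4 and 5, and limma-voom 3 and 5. Fits that left out a library gave 0 to 2 lower at 2 h, so that none kept the 3, and 4 to 5 at 12 h. Cdk4, the main partner of the INK4 proteins, hardly moved, with 566 and 530 CPM in vehicle, 542 and 494 at 2 h, and 486 and 541 at 12 h (log2 fold change at 12 h -0.09 ± 0.111, adjusted p = 0.526). Cdk6 was lower at 12 h (-0.69 ± 0.107, adjusted p = 0.00259). Cyclin D1 (Ccnd1) was lower at 2 h (-0.53 ± 0.139, adjusted p = 0.0499) and at 12 h (-0.52 ± 0.139, adjusted p = 0.0232), and cyclin D2 (Ccnd2) went from -0.70 ± 0.165 at 2 h to -1.64 ± 0.170 at 12 h (adjusted p = 0.0349 and 0.000508). Cyclin E2 (Ccne2) was at -1.38 ± 0.280 and -2.38 ± 0.297 (adjusted p = 0.0218 and 0.00108). For Ccne1, with 9 to 51 counts a library, no change was called (-1.93 ± 0.802 at 12 h, adjusted p = 0.0954), nor for Cdk2 at 12 h (-0.03 ± 0.109, adjusted p = 0.860). Cyclin A2 (Ccna2), at 92.7 and 190 CPM in vehicle, stood at 1.87 and 2.16 CPM at 12 h.

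Further down the pathway, 2 of 13 pocket protein and E2F genes were lower at 2 h and 0 higher, and at 12 h 5 were lower and 2 higher, with a median of -0.39, beside 5.25% lower at 2 h, and 21.5% lower and 21.8% higher at 12 h, among all genes tested. At 12 h, leaving out a library gave 3 to 6 lower and 0 to 2 higher. With the term for the replicate number, 5 were lower and 2 higher at 2 h, and 8 lower and 2 higher at 12 h. At 2 h, where 9.91% of all genes tested were higher, limma-voom gave 1 lower and 0 higher, and DESeq2 3 lower and 1 higher. E2f2 was lower at both times (-2.39 ± 0.309 and -4.69 ± 0.373, adjusted p = 0.0042 and 0.000196), and E2f8, a repressor of the family, at 12 h (-4.89 ± 0.555, adjusted p = 0.00073). Of 19 genes of DNA synthesis, 0 were called at 2 h (0 also with limma-voom and DESeq2, 1 higher and 1 lower with the term for the replicate number, and up to 1 in each direction with a library left out) and 10 were lower at 12 h (6 to 11 with a library left out, and 14 lower and 1 higher with the term for the replicate number), with a median of -1.06, among them Tk1 (-5.02 ± 0.767, adjusted p = 0.0025) and Mcm5 (-4.11 ± 0.531, adjusted p = 0.00124). Of 20 mitotic genes, 0 were called at 2 h by the same 3 tools and 20 were lower at 12 h, with a median of -5.24 and a range of -6.68 (Nusap1, of the spindle) to -3.76. The summed level of the mitotic list was 1354 and 2811 CPM in vehicle, 1376 and 2723 at 2 h, and 60.0 and 69.4 at 12 h. Replicate 2 held the higher sum and less Cdkn1b than replicate 1 in every group. The sizes of these differences did not run together. Cdkn1b was at 166 and 158 CPM in vehicle, where the sums were far apart, and at 118 and 71.8 CPM at 12 h, where they were close. The part of the unequal mitotic sums in the spread of Cdkn1b was not tested.

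**Figure D3:**
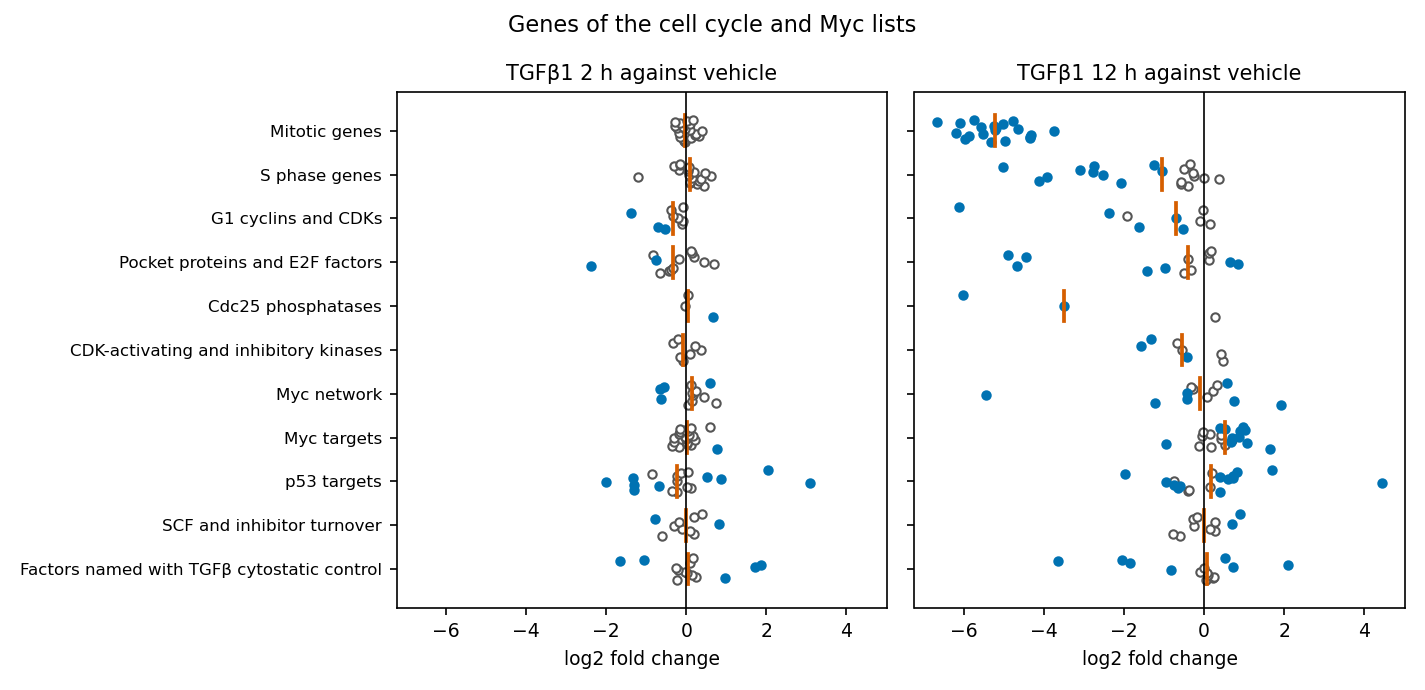
Log2 fold change of every tested gene of each list at 2 h (left) and 12 h (right) of TGFβ1 against vehicle. Points are genes, filled where the adjusted p is under 0.05, and vertical bars are medians of the list. At 12 h the mitotic list has a median of -5.24 and the Myc targets one of 0.51.

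Other lists hold genes known to act on the inhibitors or beside them. Of 10 genes of the SCF ligase and of inhibitor turnover, 2 were higher at 12 h, Cdc34 (0.91 ± 0.127, adjusted p = 0.00179) and Fbxw7, which targets Myc and cyclin E for degradation (0.69 ± 0.124, adjusted p = 0.00478), and 0 were lower, with a median of -0.01, a share of higher genes close to the 21.8% of all genes tested. Leaving out a library gave 1 to 2 higher and 0 to 1 lower at 12 h, DESeq2 gave 3 higher and 1 lower, and the term for the replicate number 3 in each direction. At 2 h 1 was higher and 1 lower (0 to 2 and 0 to 1 with a library left out). For Skp2, which marks p27 for degradation, the value at 12 h was -0.60 ± 0.251 (adjusted p = 0.0960). Of 18 p53 targets tested other than Cdkn1a, 4 were higher at 2 h and 8 at 12 h, and 5 were lower at each time, with medians of -0.24 and 0.17, so that genes of the list moved both ways, as did all genes tested (9.91% higher and 5.25% lower at 2 h, and 21.8% and 21.5% at 12 h). At 12 h, leaving out a library gave 4 to 8 higher and 2 to 7 lower, and 5 were higher without TMM factors. Gadd45a reached 4.45 ± 0.166 at 12 h (adjusted p = 3.16e-05), whereas the death receptor Fas was at -1.97 ± 0.252 (adjusted p = 0.00119). Of 14 factors named in work on growth arrest by TGFβ, 3 were higher at each time, 2 were lower at 2 h and 4 at 12 h, with medians of 0.05 and 0.06, and leaving out a library gave 1 to 3 higher at 12 h. The shares at 12 h were near the 21.8% higher and 21.5% lower of all genes tested. Among them were the repressor Klf10 (1.87 ± 0.130 at 2 h and 2.11 ± 0.131 at 12 h, adjusted p = 0.000502 and 8.57e-05) and the differentiation inhibitors Id2 (-3.66 ± 0.431 at 12 h, adjusted p = 0.000848), Id3 (-2.05 ± 0.150, adjusted p = 0.00015) and Id1 (-1.84 ± 0.140, adjusted p = 0.000166). At 2 h, Id2 (-1.66 ± 0.394, adjusted p = 0.0362) and Id3 (-1.06 ± 0.145, adjusted p = 0.00494) were already called lower and Id1 was not (0.09 ± 0.134, adjusted p = 0.710).

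Genes with a like pattern were sought for each called gene among the 11079 others tested, by the root mean square difference over the 6 libraries of log2 CPM relative to vehicle. Nearest to Cdkn2b were Ier2, Nr4a1 and Plin2, at differences of 0.13, 0.14 and 0.15. Nearest to Cdkn2a were Sh3glb1, Gxylt2 and Ece1, at 0.07, 0.09 and 0.09. For Cdkn2c they were Srd5a1, Lss and Acss2, at 0.13, 0.14 and 0.15. These patterns were rather rare: 10 genes lay within 0.2 of Cdkn2b and 8 within 0.2 of Cdkn2c, against 136 for Cdkn2a and 261 for Cdc25a. Myc had 4 genes within 0.2, the nearest being Akap12, Azin2 and Nectin1 at 0.08, 0.11 and 0.13. Nearest to Cdc25a were Ankrd11, Bcar1 and Kank2, at 0.07, 0.08 and 0.08.

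On build NCBIM37 of the mouse genome, in the GENCODE vM1 annotation, Cdkn2a (gene ID 12578) lies at chr4:88920377-88940557 and Cdkn2b (12579) at chr4:88952198-88956941, both on the minus strand, with outermost start sites 16.4 kb apart. Cdkn2c (12580) is on the same chromosome at chr4:109333481-109339794 (minus strand). Cdkn1b (12576) lies at chr6:134870419-134875531 (plus), Cdkn1c (12577) at chr7:150644255-150646955 (minus), Cdkn2d (12581) at chr9:21092907-21095653 (minus) and Cdc25a (12530) at chr9:109778083-109796392 (plus). Myc (17869) is at chr15:61816946-61821929 (plus) and Cdkn1a (12575) at chr17:29227924-29237667 (plus). None of the 9 overlaps another annotated gene on either strand.

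The 2 counted genes on each side of every one of the 9, 32 neighbours in all without the 9 themselves, were read for comparison. Of these, 18 passed the filter. At 2 h 1 was higher and at 12 h 4 were, 3 were lower at each time, and medians were -0.07 and 0.06 beside -0.01 and 0.02 for all genes. Among all genes tested, 9.91% were higher and 5.25% lower at 2 h. At 12 h the counts of neighbours were near the shares of all genes tested (21.8% higher and 21.5% lower). Beside Cdkn2a, Mtap, an enzyme of methionine salvage, was higher at 12 h (0.60 ± 0.101, adjusted p = 0.00379) and not at 2 h (-0.13 ± 0.101, adjusted p = 0.456), whereas Dmrta1 on the side of Cdkn2b had 0 counts in every library. Pvt1, the long noncoding RNA that starts 52.6 kb downstream of the Myc start site, took another course than Myc. It was at 22.6 and 22.4 CPM in vehicle, 14.1 and 12.8 at 2 h, and 22.7 and 22.1 at 12 h. Its log2 fold change was -0.75 ± 0.130 at 2 h (adjusted p = 0.0125) and -0.01 ± 0.128 at 12 h (adjusted p = 0.968). Near Cdkn1c, Slc22a18 was lower at 12 h (-0.70 ± 0.175, adjusted p = 0.0181). On the downstream side of Cdc25a, Dhx30 and Smarcc1 start 242 and 256 kb from its start site. Both were higher at 12 h (0.47, adjusted p = 0.0219, and 1.09 ± 0.120, adjusted p = 0.000651), when Cdc25a had come back towards vehicle.

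Promoters were read from a RefSeq table made on build GRCm38.p6, as the 250 bases before a start site. It gave 10 promoters for 7 of the 9 genes, with no entry for Cdkn1c and Myc. Those of Cdkn2b and Cdc25a are shown because these were the genes called at 2 h. Each matched NCBIM37 exactly and at a single place, chr4:88956942-88957191 on the minus strand for Cdkn2b and chr9:109777833-109778082 on the plus strand for Cdc25a, directly before the annotated gene. They are written 5′ to 3′, and capitals mark the matches to the motifs named after them.
Cdkn2b: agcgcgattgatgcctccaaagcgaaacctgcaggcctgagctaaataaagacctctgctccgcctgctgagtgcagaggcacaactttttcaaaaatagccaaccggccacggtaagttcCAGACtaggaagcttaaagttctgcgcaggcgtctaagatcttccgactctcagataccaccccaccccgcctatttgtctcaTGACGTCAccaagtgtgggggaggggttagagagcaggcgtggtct
Cdc25a: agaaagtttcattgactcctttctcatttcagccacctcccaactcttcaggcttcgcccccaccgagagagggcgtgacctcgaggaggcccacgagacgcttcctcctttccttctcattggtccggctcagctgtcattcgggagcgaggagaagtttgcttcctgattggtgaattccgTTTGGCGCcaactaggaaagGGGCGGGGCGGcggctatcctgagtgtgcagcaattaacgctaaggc

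The motifs searched on both strands were CAGAC (bound by Smad proteins), TGANTCA (AP-1), TGACGTCA (bound by CREB and ATF factors), GGGCGG (GC box of Sp1), TTTNGCGC (E2F) and CACGTG (E box bound by Myc with Max). In Cdkn2b, CAGAC began 129 bases and TGACGTCA 46 bases before the start site, and none of the other 4 motifs was found in this window. Of all 32851 promoters in the table, 42.2% hold CAGAC and 1.55% hold TGACGTCA in the same 250 bases. In Cdc25a, TTTNGCGC began 67 bases before the start site, and GGGCGG 47 and 42 bases before it in matches that overlap each other. TTTNGCGC is held by 1.13% of all promoters and GGGCGG by 32.7%. Over the 10 promoters, CAGAC was found in 5, GGGCGG in 6, TTTNGCGC in 2 (Cdc25a and the downstream start of Cdkn2a), TGACGTCA in 1, and TGANTCA and CACGTG in 0, which 6.75% and 6.02% of all promoters hold. These matches describe the letters of the windows and not binding. Because the motifs were chosen after the sequences were seen, the shares of all promoters are no test of the matches found.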

How the data were processed

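RNA was measured in 6 libraries, 2 biological replicates of each of 3 groups, grouped by the submitters' labels. The deposited values are raw read counts per gene, with no normalization. By the study's methods the authors aligned stranded reads of 50 bases to mm9 with subjunc, kept uniquely mapped reads, removed duplicates and counted reads over exons with featureCounts; the submitters' processing notes name SAMtools 0.1.19, limma 3.34.9 and edgeR 3.20.9. Removal of duplicates from single-end reads lowers the counts of the most abundant genes most.

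The analysis used edgeR 4.0.16 under R 4.3.3: TMM factors, a minimum of 2 CPM in 2 or more libraries, a single quasi-likelihood fit of the 3 groups, and Benjamini-Hochberg adjustment within each of 3 comparisons, called at an adjusted p under 0.05. A standard error is the log2 fold change divided by the square root of its F statistic. The fit was also run on simulated counts drawn without any effect shared by same-numbered replicates, and no outcome of that run is used here. With 2 libraries a group, the spread is estimated from few values. Alternatives were limma 3.58.1 (limma-voom, as in the study), DESeq2 1.42.0, edgeR with the size factors of DESeq2, plain total counts, 10 counts in every library, no filter, a replicate block (a term for the replicate number), a prior count of 2, only the groups compared, and each library left out. Counts of list genes under these settings were added after seeing the data.

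Positions and exon lengths came from GENCODE vM1 on NCBIM37 (mm9), another annotation than the one used for counting, and 20414 of 21240 genes were matched to it by symbol or synonym. Neighbours are taken among these. Promoters came from a RefSeq table (GRCm38.p6), in Python 3.11.15 with pandas 2.3.3, numpy 2.4.6 and scipy 1.17.1, and the motifs were chosen after the sequences were seen. Patterns used log2(CPM + 0.25).

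The 9 genes and the gene lists were chosen with earlier results of these data known. Named genes are all 9; from each list at most 4 called genes per comparison with the largest absolute change and no fewer than 10 counts in either library of the higher group, plus Cdk4, Cdk6, Ccnd1, Cdk2, Ccne1, Max, Zbtb17 and Skp2; the 3 nearest genes by pattern; and 2 neighbours on each side. Lists of the imprinted cluster around Cdkn1c (7 of 15 tested; 2 higher and 2 lower at 12 h), of genes around Cdkn2a and Cdkn2b (4 of 6; 1 higher and 2 lower) and of mesenchymal markers (7 of 10; 6 higher and 0 lower) were read too, beside epithelial markers (7 of 12; 3 higher and 1 lower) and markers of immune cells, endothelium and fat (1 of 9; 0 called). These counts of lists are all at 12 h, where 21.8% of all genes tested were higher and 21.5% lower. Lower epithelial markers numbered 3 with the replicate block or without TMM factors, and 2 with limma-voom or DESeq2. Marker genes of the cell label and Ldha were named after their values were seen. Proteins and chromatin were not analysed here.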

Additional observations from a re-analysis of the deposited data

Results flagged for a closer look

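Levels differed between 12 h and 2 h of TGFβ1 for 4 of the 7 genes tested, by the test of 12 h against 2 h itself, beside 15.2% of all genes tested that were higher at 12 h and 18.9% that were lower. With the replicate block Cdkn2a and Cdkn1b were called as well, 6 of 7 in all, beside 5373 of all 11080 genes. The time with TGFβ1 and the time without serum cannot be told apart here either. The log2 level at 12 h exceeded that at 2 h by 1.07 for Cdkn2b and by 1.85 for Myc. For Cdkn2c the difference was -2.37 and for Cdc25a -0.39. The value of Cdc25a lies next to the threshold, and its dependence on single libraries is given with its levels.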

How the results depend on the processing

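Of 315 values of the 21 fold changes of the 7 genes under 15 other settings, 275 kept their direction and their side of the threshold. Among these settings, a prior count of 2 leaves the adjusted p as it was, so its 21 values could not change their side. Genes called numbered 2 at 2 h, 4 at 12 h and 4 between 12 h and 2 h. At 2 h they were 4 with DESeq2, 4 with the replicate block and 1 with only the groups compared, and 0 to 4 with a library left out; at 12 h a library left out gave 4 to 6, and between 12 h and 2 h 2 to 5. Over all genes, 1680 were called at 2 h, 3222 with the replicate block, 882 with only the groups compared and 618 to 2196 with a library left out. With DESeq2, Cdkn2a at 2 h (0.59), Cdkn1a at 2 h (0.50) and 12 h (0.42) and Cdkn1b at 12 h (-0.78) were also called. With only the groups compared, Cdkn1a (0.41) and Cdkn1b (-0.79) at 12 h were called, and Cdkn2b at 2 h (0.99) and Cdc25a between 12 h and 2 h (-0.40) were not; the latter was also lost without the filter (-0.39). Without TMM factors Myc at 2 h turned to -0.0599. The cause of these changes was not tested.

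With a library left out, values ran at 2 h from 0.36 to 0.80 for Cdkn2a, 0.77 to 1.27 for Cdkn2b, 0.35 to 0.64 for Cdkn1a, -0.71 to 0.26 for Cdkn1b, -0.28 to 0.47 for Myc and 0.56 to 0.74 for Cdc25a. Myc turned to -0.28 without vehicle replicate 1 and to -0.04 without 2 h replicate 2. At 12 h they ran from 0.25 to 0.57 for Cdkn1a, -1.19 to -0.47 for Cdkn1b and 0.15 to 0.35 for Cdc25a. Between 12 h and 2 h they ran from 0.21 to 0.63 for Cdkn2a, 0.91 to 1.24 for Cdkn2b, -0.25 to 0.0676 for Cdkn1a (above 0 without 2 h replicate 1 or 12 h replicate 2), -1.04 to -0.0796 for Cdkn1b and -0.50 to -0.30 for Cdc25a. A group left with a single library is assumed to vary like the others.

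Replicates share only a number, and no pairing is named. Deviations of same-numbered libraries correlated over genes by r = 0.702 (vehicle and 2 h), 0.273 (vehicle and 12 h) and 0.392 (2 h and 12 h). With the replicate block, Cdkn2a at 2 h (0.60) and between 12 h and 2 h (0.41), Cdkn1a at 2 h (0.50) and 12 h (0.42), and Cdkn1b at 12 h (-0.83) and between 12 h and 2 h (-0.61) were called as well. For the lists, leaving out a library gave 20 lower mitotic genes in each fit at 12 h, 6 to 11 lower genes of DNA synthesis and 7 to 11 higher Myc targets.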
